A study of Danio rerio with 12 samples.

Results

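The heart field transcription factors hand2, gata4, gata5, gata6, nkx2.5, nkx2.7, tbx5a and tbx20 were followed on 12 zebrafish arrays. A probe set was taken when the platform annotation gave it a single symbol among these 8 genes. All 8 were found among the 8793 genes of the array, as 9 of the 15502 probe sets tested, since tbx5a has a second one. Whole embryos were injected at the 1 to 2 cell stage with morpholinos against pbx2 and pbx4 (morphants) or with control morpholinos, which the labels call pbx2 mutant. They were collected at the 10 somite or the 18 somite stage, with 3 arrays in each of 4 groups. A morpholino is an antisense oligomer that keeps an mRNA from being spliced or translated. The labels give no strain and do not say that replicates came from separate clutches, so the p-values rest on a spread between arrays that may be technical only.

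These genes encode the factors that set up the heart in the lateral plate mesoderm on either side of the embryo, before the precursors migrate to the midline and form a tube. Hand2 is a basic helix-loop-helix factor, the Gata proteins are zinc finger factors, the Nkx2 proteins are homeodomain factors and Tbx5a and Tbx20 are T-box factors. Together they switch on the contractile genes of the myocardium. Several also act elsewhere: hand2 in pharyngeal arches and pectoral fin buds, the Gata genes in endoderm, tbx5a in the fin and the dorsal retina, and tbx20 in cranial motor neurons. Pbx proteins are TALE homeodomain factors that bind DNA with partners such as Hox and Meis proteins. The comparison within a stage asks how far the RNA of these genes depends on Pbx function during segmentation.

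Signals are log2 values per probe set as deposited, so a difference of 1 is a doubling, and signals of different probe sets are not compared. Arrays of a stage shared a scale, with medians of 7.29 to 7.31 at 10 somites and 6.52 to 6.57 at 18 somites. For changes between stages each array was therefore centred on its median. Background was read from 17 control probe sets for artificial tag sequences that embryos do not carry. They ran from 4.05 to 6.68 and from 4.08 to 6.58 on control and morphant arrays at 10 somites, and from 3.45 to 5.835 and from 3.45 to 5.90 at 18 somites. Markers of neural tube (4 of 4), notochord (3 of 3), neural crest (3 of 3) and epidermis (2 of 2) exceeded the highest tag mean in every group of these whole embryos. Of 4 myocardial markers none did so at 10 somites, while 4 did in controls and 2 in morphants at 18 somites. The targeted pbx2 probe set was higher in morphants on every array of both stages, at 10.24 to 10.33 (10 somites) and 9.52 to 9.915 (18 somites) where controls had 8.395 to 8.76 and 7.997 to 8.23. The pbx4 signals were 11.595 to 11.625 against 11.05 to 11.28, and 10.34 to 10.65 against 10.13 to 10.24. The pbx2 differences were 1.75 and 1.63 at 10 and 18 somites (limma adjusted p = 7.05e-07 and 1.41e-06). Those of pbx4 were 0.45 and 0.34 (adjusted p = 0.00606 and 0.0192). The cause of these rises was not tested. RNA signals do not measure the Pbx proteins, so the knockdown itself is not checked by them.

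Of the 8 genes, hand2 had the largest difference between morphants and controls at both stages, and it was higher in morphants. The signals of nkx2.5, tbx5a and tbx20 did not exceed the highest tag mean, so their differences are bounded by background. At 10 somites the hand2 signal was 9.96, 9.91 and 9.97 on control arrays 1, 2 and 3, and 10.39, 10.38 and 10.34 on morphant arrays. The groups did not overlap, and the difference was 0.42 ± 0.07 (standard error of the model; n = 3 per group; limma adjusted p = 0.00206), or 1.34-fold. At 18 somites control arrays gave 8.28, 8.24 and 8.40, and morphant arrays 9.05, 9.19 and 8.98. Again every morphant array was above every control array, and the difference was 0.77 ± 0.07 (adjusted p = 1.8e-05), or 1.70-fold. By p-value hand2 ranked 210 among 15502 probe sets at 10 somites and 23 at 18 somites. Its rise was called with any single array left out, and at 10 somites the adjusted p became 0.0649 without the 4 arrays numbered 1 (difference 0.42). The effect was larger at 18 than at 10 somites by 0.34 ± 0.10, but this difference was not called (adjusted p = 0.32, unadjusted p = 0.00367). In bulk RNA of whole embryos, more cells that express a gene and more RNA per cell cannot be told apart.

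**Figure D1:**
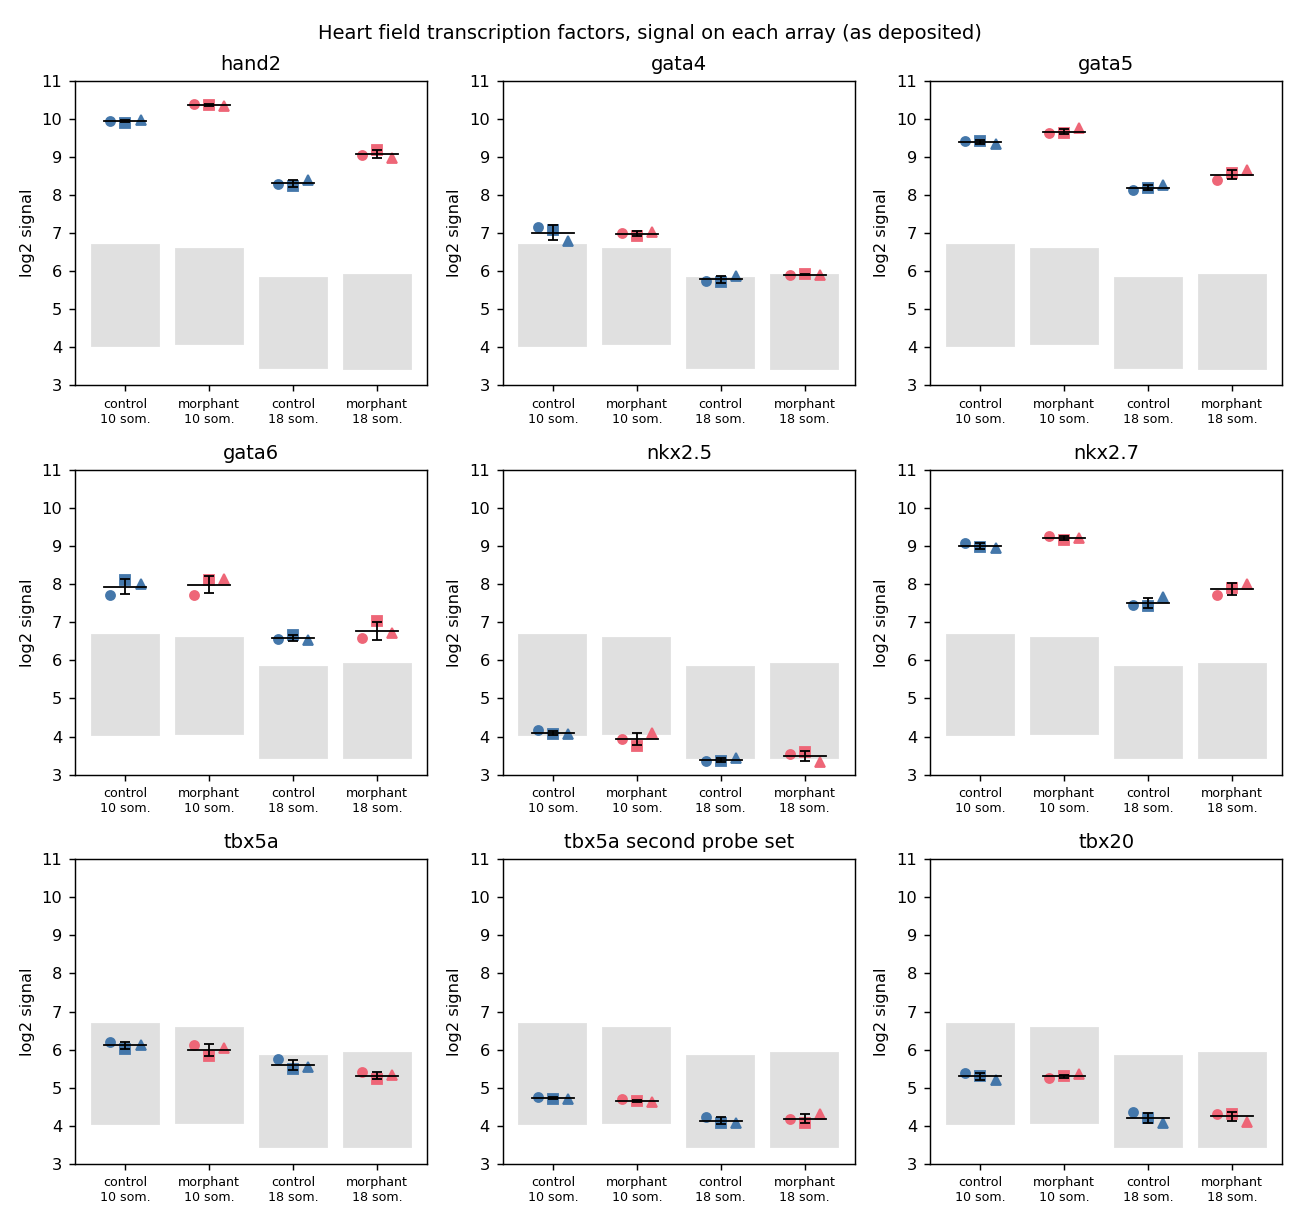
Log2 signal as deposited (vertical axis) of the 9 probe sets in the 4 groups, with circles, squares and triangles for the arrays numbered 1, 2 and 3, bars for the mean ± SD (n = 3) and grey boxes for what the 17 tag probe sets spanned in that group. The morphant arrays of hand2, gata5 and nkx2.7 lie above the control arrays of their stage, and nkx2.5, both tbx5a probe sets and tbx20 lie within or below the grey range.

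Of the Gata genes gata5 was called. This gene, whose mutation in zebrafish reduces the myocardium and the endoderm, rose at both stages. At 10 somites controls gave 9.43, 9.42 and 9.34 and morphants, without overlap, 9.63, 9.64 and 9.75. That is a difference of 0.28 ± 0.08 (adjusted p = 0.0373). At 18 somites controls gave 8.13, 8.20 and 8.27 and morphants 8.40, 8.58 and 8.65. These groups did not overlap either, and the difference was 0.34 ± 0.08 (adjusted p = 0.0092), or 1.27-fold. The call at 10 somites was lost when any 1 of the 6 arrays of that stage was left out. The adjusted p was then 0.0763, 0.0894 and 0.0952 without the control arrays numbered 1, 2 and 3, and 0.0652, 0.078 and 0.155 without the morphant arrays in the same order. It was 0.112 without the 4 arrays numbered 1 and 0.0554 after quantile normalization. The call at 18 somites held in every alternative run, with adjusted p between 0.00369 and 0.044.

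At 10 somites gata4, which acts with gata5 and gata6 in heart and gut development, gave 7.15, 7.095 and 6.79 in controls. Morphants gave 7.0, 6.92 and 7.04, overlapping the controls, with a difference of -0.02 (95% interval -0.21 to 0.16; adjusted p = 0.918). At 18 somites controls gave 5.75, 5.73 and 5.89 and morphants 5.90, 5.93 and 5.91. Those groups were separate, but by little, and the difference of 0.13 (interval -0.06 to 0.31) was not called (adjusted p = 0.408). At 18 somites control arrays 1 and 2 of gata4 lay inside the tag range and its other arrays just above it. The probe set of gata6 was the most variable of the Gata probe sets between replicates. At 10 somites controls gave 7.71, 8.11 and 8.0, and morphants 7.73, 8.12 and 8.13. At 18 somites the controls gave 6.55, 6.67 and 6.535, and the morphants 6.58, 7.04 and 6.72. The groups overlapped at both stages, and neither difference was called (0.05, interval -0.23 to 0.34, adjusted p = 0.871; 0.20, interval -0.09 to 0.48, adjusted p = 0.394). Within the pairs of arrays of the same number the gata6 differences were 0.014, 0.011 and 0.129 at 10 somites. They were 0.032, 0.365 and 0.189 at 18 somites. At 18 somites the interval of gata6 holds the estimate for gata5, and that of gata4 ends just below it.

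Of the Nkx2 genes, nkx2.7 gave signal above background and nkx2.5 did not. In zebrafish both are needed to maintain ventricular identity, and nkx2.7 appears before nkx2.5. At 10 somites nkx2.7 gave 9.09, 8.99 and 8.95 in controls, and 9.26, 9.17 and 9.215 in morphants. All morphant arrays were higher, but the difference of 0.20 ± 0.09 was not called (adjusted p = 0.182). At 18 somites controls gave 7.46, 7.425 and 7.67 and morphants 7.71, 7.91 and 8.02, and nkx2.7 rose by 0.36 ± 0.09 (adjusted p = 0.0151), or 1.28-fold. The lowest morphant array stood just above the highest control array. Leaving out an array of that stage ended the call for control array 1 (adjusted p = 0.0601), control array 2 (0.0622) and morphant array 3 (0.0598), as did a fit of the 6 arrays of that stage alone (0.0527). At 10 somites nkx2.5 gave 4.17, 4.08 and 4.06 in controls, and 3.94, 3.76 and 4.08 in morphants. By 18 somites it gave 3.36, 3.365 and 3.44 in controls, and 3.54, 3.58 and 3.34 in morphants. These values lay at the bottom of the tag range or under it, and the groups overlapped at both stages (adjusted p = 0.257 and 0.538). No level of nkx2.5 RNA can be read from them.

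The T-box genes tbx5a, which is needed for heart and pectoral fin in zebrafish, and tbx20 had no called difference, and all their signals lay within the tag range. At 10 somites the first tbx5a probe set gave 6.20, 6.02 and 6.13 in controls, and 6.12, 5.82 and 6.05 in morphants, with overlap (difference -0.12, adjusted p = 0.492). At 18 somites controls gave 5.74, 5.50 and 5.55 and morphants 5.40, 5.22 and 5.33. The groups did not overlap, with differences of -0.34, -0.28 and -0.22 in the pairs of arrays of the same number and a mean difference of -0.28 ± 0.09 that was not called (adjusted p = 0.0627). The replicate numbers were taken to pair the arrays, which the main fit left out. With the number as a block within each stage the tbx5a difference at 18 somites was called (adjusted p = 0.0113), as it was after median centring (0.0389, difference -0.30) and quantile normalization (0.0479). The second tbx5a probe set did not show this at 18 somites, with controls at 4.24, 4.07 and 4.07, and morphants at 4.18, 4.065 and 4.30 (difference 0.05, adjusted p = 0.709). At 10 somites its controls gave 4.765, 4.71 and 4.70, and its morphants 4.69, 4.64 and 4.62, lower without overlap (difference -0.08, adjusted p = 0.614). At 10 somites tbx20 gave 5.38, 5.31 and 5.19 in controls, and 5.27, 5.30 and 5.345 in morphants. By 18 somites it gave 4.35, 4.19 and 4.07 in controls, and 4.32, 4.31 and 4.105 in morphants. Its groups overlapped at both stages, with differences of 0.01 and 0.04 (adjusted p = 0.975 and 0.832). The tag control probe sets themselves differed between morphant and control means by -0.21 to 0.11 at 10 somites and by -0.20 to 0.12 at 18 somites.

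**Figure D2:**
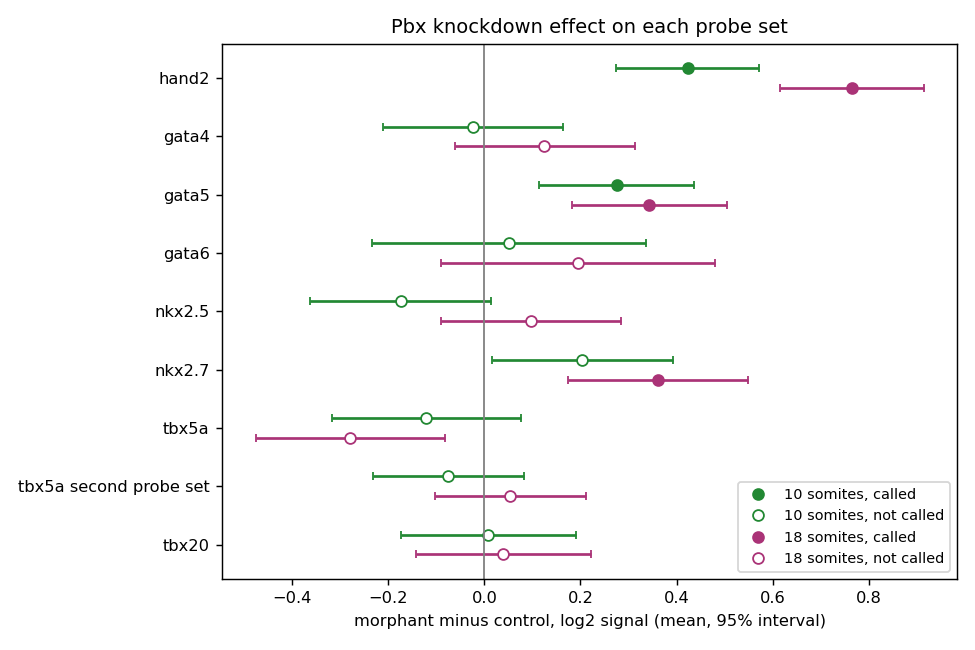
Difference of morphant and control mean log2 signal (horizontal axis) for each probe set at 10 and 18 somites, with 95% intervals of the limma model. Filled points had an adjusted p under 0.05: hand2 and gata5 at both stages and nkx2.7 at 18 somites, all higher in morphants.

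As a group, 2 of 9 probe sets rose and none fell at 10 somites. The calls there covered 8.17% of the 15502 probe sets, 4.32% with a rise and 3.85% with a fall. At 18 somites 3 of 9 rose and none fell, with 12.5% of the 15502 called, 7.11% for a rise and 5.37% for a fall. With the replicate block 2040 probe sets in all were called at 10 somites in place of 1267. At 18 somites it called 2809 in place of 1935, and 4 members, hand2, gata5 and nkx2.7 higher and tbx5a lower. The median difference over the 9 probe sets was 0.01 at 10 somites and 0.13 at 18 somites, against -0.0045 and 0.001 over all probe sets. Separate groups with the morphant arrays higher were seen for 3 of 9 at 10 somites (15.3% of all probe sets) and for 4 of 9 at 18 somites (15.4%), and with the morphant arrays lower for 1 of 9 at each stage (13.2% and 12.7%). None of the 9 passed the limma test of the difference between the stages' effects at an adjusted p under 0.05, where 0.0323% of all probe sets did, and 2 had an unadjusted p under 0.05, hand2 and nkx2.5, as did 1257 of the 15502.

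Between 10 and 18 somites the heart field factors with signal above background declined in control embryos relative to the array median. The largest decline was that of hand2, from 2.65 ± 0.04 to 1.78 ± 0.08 (SD, n = 3; log2 signal minus array median), a change of -0.87 ± 0.07 (adjusted p = 6.33e-07). It was followed by nkx2.7 at -0.73 ± 0.09 (adjusted p = 1.53e-05), gata6 at -0.59 ± 0.14 (adjusted p = 0.00307), gata4 at -0.46 ± 0.09 (adjusted p = 0.000692) and gata5 at -0.43 ± 0.08 (adjusted p = 0.000386). No control array of the later stage reached the range of the earlier one for these genes, which held in the same direction for 30.6% of all probe sets. In all, 6 of 9 probe sets fell and 1 rose in controls, where a fall was called for 26.5% of the probe sets on the array and a rise for 24.4%, so a call alone sets no gene apart. The declines of gata4 and gata5 were inside the changes of the tag control probe sets by the same measure (-0.58 to 0.70), and that of gata6 lay at their edge. In controls at 18 somites the mean gata4 signal as deposited, 5.79, barely exceeded the highest tag mean of 5.78, so its decline is bounded by background.

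In morphants the same 5 genes declined too, hand2 by 0.55 ± 0.07, nkx2.7 by 0.59 ± 0.09, gata6 by 0.46 ± 0.14, gata5 by 0.38 ± 0.08 and gata4 by 0.33 ± 0.09 on the log2 scale (adjusted p between 3.37e-05 and 0.0119). Those of gata4, gata5 and gata6 were inside the changes of the tag probe sets in morphants (-0.52 to 0.72). The gata6 call did not hold without the morphant array numbered 2 (adjusted p = 0.0521) or 3 (0.0526) at 10 somites or without that numbered 1 at 18 somites (0.0604), and gata4 was not called after centring on the 75th percentile (0.0584). In all, 6 of 9 probe sets fell and 2 rose in morphants, where a fall was called for 28.6% of the array's probe sets and a rise for 24.9%. On the centred scale hand2 ran in the order morphant at 10 somites (3.04 to 3.09), control at 10 somites (2.61 to 2.68), morphant at 18 somites (2.41 to 2.66) and control at 18 somites (1.73 to 1.87). The ranges of control embryos at 10 somites and morphants at 18 somites overlapped, and the other neighbours in this order were separate. For gata5 the morphants at 18 somites (1.85 to 2.08) likewise overlapped the controls at 10 somites (2.06 to 2.13), while for nkx2.7 they did not (1.16 to 1.45 against 1.66 to 1.80). The stage changes and the Pbx effects share arrays, so these orders are not separate evidence.

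**Figure D3:**
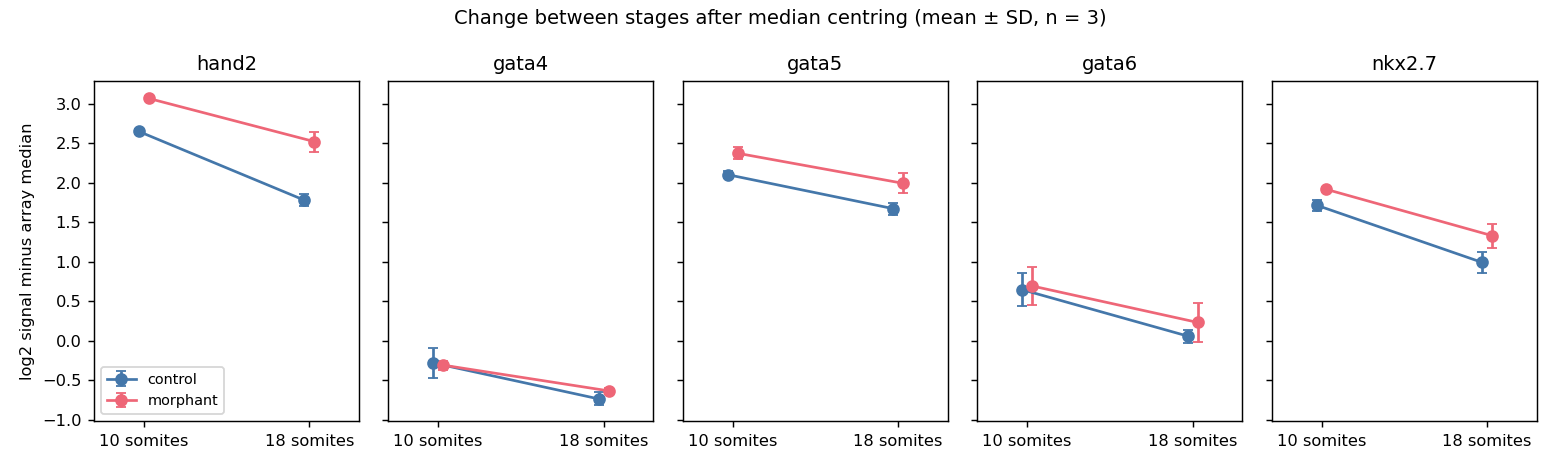
Log2 signal minus the array median (vertical axis, mean ± SD, n = 3) at 10 and 18 somites for the 5 genes with signal above the highest tag mean, in control and morphant embryos. All lines fall, and the morphant line of hand2 ends at 2.52 where the control line began at 2.65.

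The probe sets within the tag range changed less between stages. In controls tbx20 was lower at 18 somites by 0.32 ± 0.09 after centring (adjusted p = 0.00686), the first tbx5a probe set was higher by 0.25 ± 0.09 (adjusted p = 0.0318), and the second tbx5a probe set (0.17, adjusted p = 0.0535) and nkx2.5 (0.06, adjusted p = 0.629) were not called. With the replicate block the second tbx5a probe set was called (adjusted p = 0.0422). The first lost its call without the control array numbered 2 (0.123) or 3 (0.0575) at 10 somites or numbered 1 at 18 somites (0.141). In morphants tbx20 was at -0.31 (adjusted p = 0.00802), the second tbx5a probe set at 0.28 (adjusted p = 0.00379), nkx2.5 at 0.31 (adjusted p = 0.0101, rising to 0.057 with morphant array 2 of 10 somites left out) and the first tbx5a probe set at 0.07 (adjusted p = 0.526). The changes of the 17 tag control probe sets had a median of 0.11 in controls, and all these values lie inside their range. On the values as deposited, where the median of all probe sets changed by -0.78, tbx5a and nkx2.5 were lower at 18 somites instead of higher.

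Genes listed as other regulators of the heart field and heart tube were set beside the members. Signals of whole embryos do not show in which tissue these genes changed. Of 24 measured genes, 1 rose and 1 fell at 10 somites, and 7 rose and none fell at 18 somites, with medians of -0.06 and 0.09 (-0.0023 and 0.0027 over all genes). Of all probe sets 4.32% were called for a rise and 3.85% for a fall at 10 somites, and 7.11% and 5.37% at 18 somites. The risers at 18 somites that stayed called with any single array left out were the LIM homeobox gene isl2a at 0.53 ± 0.08 (adjusted p = 0.00125), the ligand gene bmp2b at 0.50 ± 0.09 (adjusted p = 0.00349), the Nkx2 gene nkx2.3 at 0.45 ± 0.09 (adjusted p = 0.0057) and the Apelin receptor gene aplnra at 0.35 ± 0.08 (adjusted p = 0.00766). Apelin receptors and their ligand gene apela are needed in zebrafish for cells to reach the heart field. The rises of foxc1a (0.35), apela (0.33) and tbx3a (0.34) at 18 somites were less firm. Their adjusted p was 0.0246, 0.0217 and 0.0495, and reached 0.0882 without the control array numbered 1, 0.0863 without the morphant array numbered 2 and 0.178 without the control array numbered 2. At 10 somites hey2, a Notch target gene that limits heart size, fell by 0.34 (adjusted p = 0.00798), and bmp2b rose by 0.33 (adjusted p = 0.0431, and 0.168 without the control array numbered 2). With the replicate block 2 genes of this list fell at 10 somites. Over all 15502 probe sets the block within each stage called 961 falls there in place of 597.

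Among the contractile genes listed for heart muscle, the calls were falls. Of 9 measured genes of this list 2 fell at 10 somites and 5 at 18 somites, and none rose, with medians of -0.16 and -0.55. Signals of whole embryos do not tell heart muscle from other muscle. In controls at 10 somites ttn.2 (8.49), actc1a (13.0) and tpm4a (10.86) lay above the tag range, where no myocardial marker did. A fall was called for 3.85% of all probe sets at 10 somites and for 5.37% at 18 somites. At 18 somites, beside the rise of hand2, the myosin light chain genes cmlc1 and myl7 fell by 1.85 and 0.93, the heavy chain gene myh7 by 1.68, the titin gene ttn.2 by 0.89 and the troponin C gene tnnc1a by 0.55 (adjusted p = 0.00175 or less). The morphant signals of cmlc1 (5.28) and myh7 (4.68) and both groups of tnnc1a (4.125 and 3.57) did not exceed the tag range, and these differences are bounded by background. The other 4 genes were not called, with tnnt2a at -0.40, actc1a at 0.04, actn2b at 0.06 and tpm4a at 0.17. Fast muscle markers fell at 18 somites too, 3 of 4 with a median of -0.86 (myhz1.3 at -1.58, mylpfa at -0.905 and atp2a1 at -0.815), and their summed signal was 10.62 to 10.85 in controls and 9.205 to 10.19 in morphants. Of 4 neural tube markers 3 fell at 10 somites and 2 at 18 somites, so falls were also seen outside heart muscle. The part of these markers in the result was not tested. The summed signal of the 4 myocardial markers was 8.57 to 8.99 on control arrays and 7.46 to 7.86 on morphant arrays (log2). At 10 somites the troponin T gene tnnt2a fell by 0.64 (adjusted p = 0.00625) and ttn.2 by 0.595 (adjusted p = 0.0254, rising to 0.103 with morphant array 3 left out), with the summed markers at 7.40 to 7.52 and 7.01 to 7.10. The signals of myl7, cmlc1, myh7, tnnt2a and tnnc1a at 10 somites lay within or under the tag range. Of the 3 other ttn.2 probe sets 1 was called lower at both stages, and the others were not called. In controls 8 of the 9 contractile genes rose from 10 to 18 somites, with a median of 1.04 after centring. Of the 4 fast muscle markers 3 rose as well, with a median of 3.89. A rise was called for 24.4% of all probe sets. The 5 heart field factors above background declined, where a fall was called for 26.5% of all probe sets. Falls were more common among bright probe sets. Of the 60% with the highest mean, which hold these factors, 3245 fell and 1462 rose in controls.

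**Figure D4:**
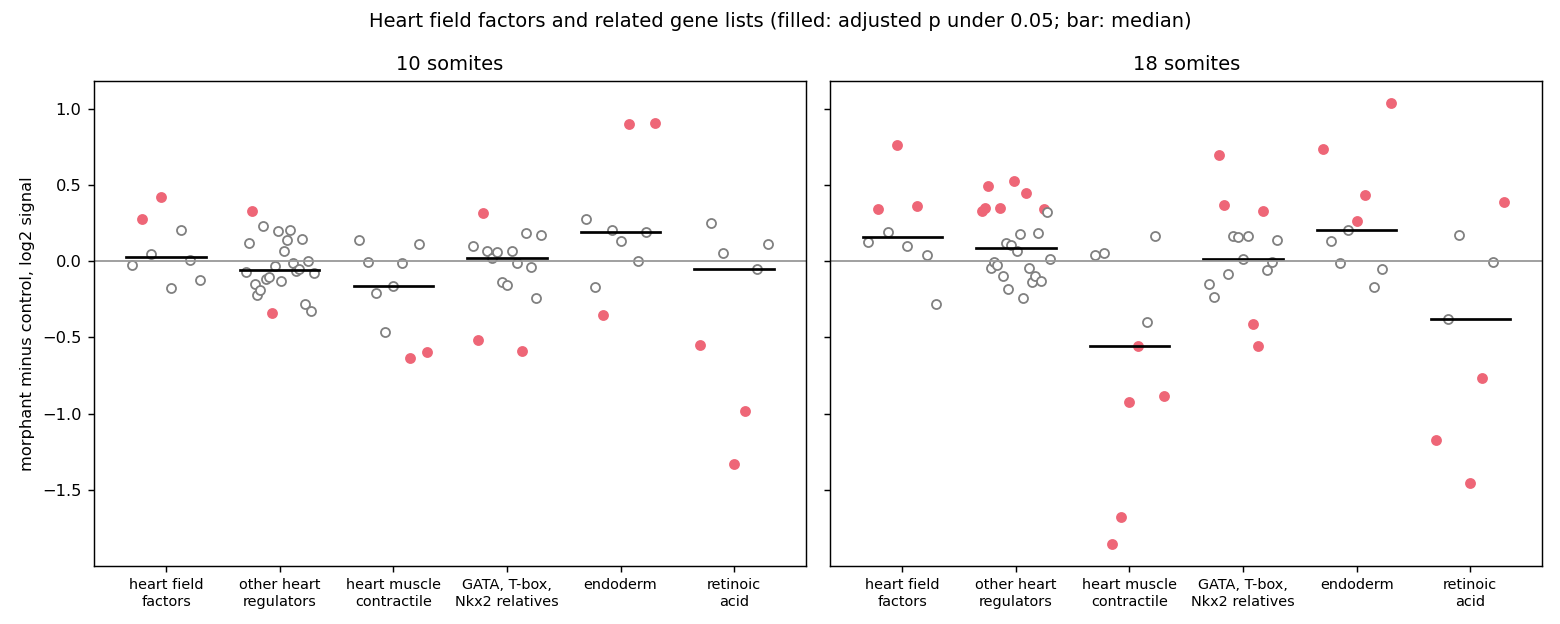
Difference of morphant and control mean log2 signal (vertical axis) at 10 somites (left) and 18 somites (right) for every measured gene of 6 lists, filled where the adjusted p was under 0.05, with a bar at the list median. Contractile genes extend down to -1.85 at 18 somites, while the heart field factors called there lie between 0.34 and 0.77.

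Relatives of the members outside the heart field gave a mixed picture. Of 15 measured Gata, T-box and Nkx2 genes 1 rose and 2 fell at 10 somites, and 3 rose and 2 fell at 18 somites, with medians of 0.02 at both stages. Over all probe sets the calls were 4.32% for a rise and 3.85% for a fall at 10 somites, and 7.11% and 5.37% at 18 somites. The highest was gata2a, a factor of blood and vessel precursors and of the ventral ectoderm, at 0.32 at 10 somites (adjusted p = 0.0435, rising to 0.156 with morphant array 3 left out) and 0.70 ± 0.09 at 18 somites (adjusted p = 0.000257). The T-box gene tbx15 fell by 0.59 and 0.55 (adjusted p = 0.000994 and 0.00108) with signals within the tag range in all groups, and its second probe set gave -0.10 and -0.09 (adjusted p = 0.468 and 0.487). The erythroid factor gene gata1a was at -0.52 at 10 somites (adjusted p = 0.0492, rising to 0.19 with morphant array 2 left out). At 18 somites gata3 was at 0.37 (adjusted p = 0.0291, rising to 0.103 with morphant array 1 left out), tbx16 at 0.33 (0.0298, and 0.117 without the morphant array numbered 2) and tbr1b, within the tag range in both groups, at -0.41 (0.0407, and 0.158 without the control array numbered 2). Another tbx16 probe set was not called at 18 somites (0.41, adjusted p = 0.121).

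Since gata5 also acts in endoderm, upstream of the endoderm gene sox32 in zebrafish, endoderm genes were set beside it. Of 9 measured, 2 rose and 1 fell at 10 somites and 4 rose and none fell at 18 somites, with medians of 0.19 and 0.21. Over all probe sets a rise was called for 4.32% and a fall for 3.85% at 10 somites, and for 7.11% and 5.37% at 18 somites. The gene sox32 rose by 0.91 and 1.04 (adjusted p = 0.000237 and 6.88e-05) and mixl1 by 0.90 and 0.44 (adjusted p = 3.12e-05 and 0.0053), from control signals within the tag range. The chemokine receptor gene cxcr4a rose by 0.74 at 18 somites (adjusted p = 0.00022), hhex was at 0.26 (0.0301, and 0.117 without the control array numbered 2), and foxa2 was at -0.35 at 10 somites (0.0187, and 0.0928 without the control array numbered 2). The summed signal of the 4 defining markers sox32, sox17, foxa1 and foxa3 was 9.34 to 9.47 on control and 9.46 to 9.59 on morphant arrays at 10 somites, and 8.54 to 8.66 and 8.76 to 8.94 at 18 somites. Their part in the rise of gata5 was not tested. Retinoic acid limits the size of the heart field in zebrafish. Of 7 measured genes of its synthesis, breakdown and reception, 3 fell and none rose at 10 somites, and 3 fell and 1 rose at 18 somites. The synthesis gene aldh1a2 changed by -0.55 and -1.17 (adjusted p = 0.000644 and 8.53e-07) and the breakdown genes cyp26b1 by -1.33 and -1.46 and cyp26c1 by -0.98 and -0.76 (adjusted p = 0.00334 or less). The receptor gene rarga was at 0.39 at 18 somites (0.0177, and 0.0831 without the control array numbered 1), and another rarga probe set was not called there (0.32, adjusted p = 0.0675). Whether these falls bear on hand2 was not tested.

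The genes with the profile most like that of each member were found by the root mean square difference over the 12 arrays, after median centring and subtraction of each probe set's own mean. For hand2 they were gata2a (0.11 on the log2 scale) and fam222aa (0.12), among 6572 candidate genes. For gata5 they were hoxb7a and btg2 (both 0.07), for nkx2.7 pus3 (0.07) and phldb2b (0.09), for gata4 zgc:153846 and ash1l (both 0.06) and for gata6 fpgs (0.08) and slc7a8a (0.10). Among the members, the closest pair above background was gata5 and nkx2.7 (0.14), and hand2 was nearest to nkx2.7 (0.19). For the probe sets in the tag range the nearest were kif7 and cyp1d1 to nkx2.5, trim8b and prdx2 to the first tbx5a probe set, hacl1 and ywhaz to the second, and eif4e2rs1 and eif2s2 to tbx20, at 0.04 to 0.09. Profiles that shift little lie close to many others, so a small distance there says little.

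**Figure D5:**
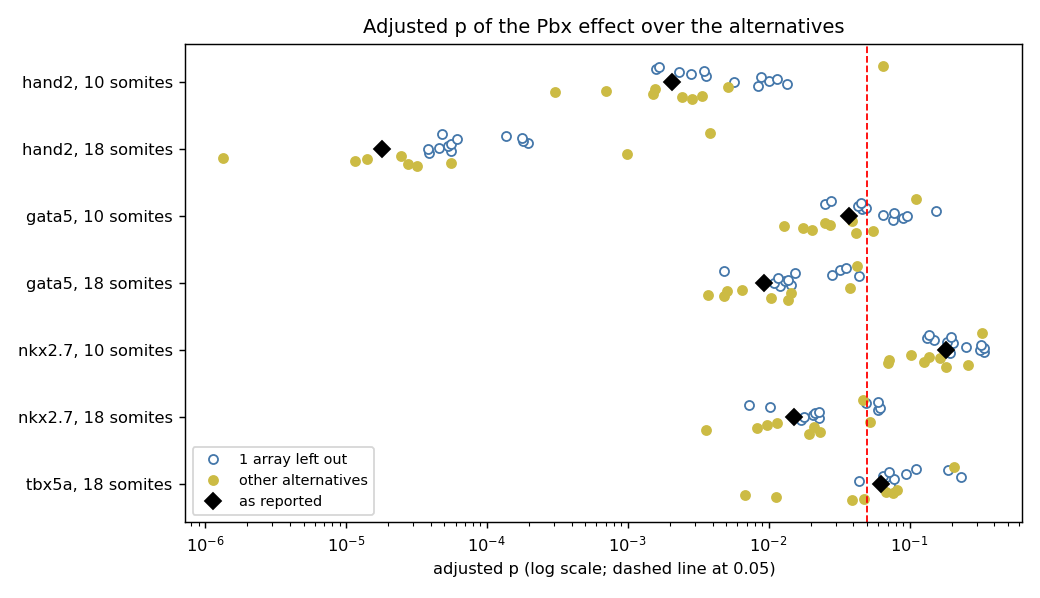
Adjusted p of the Pbx effect (log axis, dashed line at 0.05) as reported (diamonds), with 1 array left out (open circles) and under the other alternatives (filled circles). At 18 somites all points of hand2 and gata5 lie left of the line, and those of nkx2.7 and tbx5a lie on both sides. At 10 somites the points of hand2 and gata5 lie on both sides, and those of nkx2.7 lie right of the line.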

How the data were processed

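RNA of 12 samples was measured on Affymetrix zebrafish arrays from biotinylated cRNA, per the labels' protocols. The authors deposited log2 expression values per probe set, 15617 over 12 columns, made with RMA and the affy package per the submitters' processing notes. The sources used here do not say which arrays shared a normalization run. Tests leave out 115 AFFX control probe sets. The platform annotation gave 10795 probe sets 1 symbol, 135 several and 4572 none. Gene IDs of 10711 matched the RefSeq table of GRCz12tu, which served for names alone, with 1 symbol updated. A list gene was represented by its probe set with the highest mean.

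Each probe set was fitted with a mean for every group in limma 3.58.1 in R 4.3.3 (8 residual and 6.06 prior degrees of freedom), with two-sided p-values adjusted by the Benjamini-Hochberg method over 15502 probe sets and calls at an adjusted p under 0.05. A value after ± is the model's standard error, or an SD where marked. Pbx effects used values as deposited, and stage changes used arrays centred on their median. The fit was run on simulated data with independent noise on each array, which cannot show how it handles correlated arrays. The deviations of control and morphant arrays of the same number correlated in every pair (0.214 to 0.548 at 10 somites, 0.301 to 0.408 at 18 somites), so the numbers were taken to pair the arrays. Control array 3 of 10 somites correlated nearly as well with a morphant array of another number (0.231, against 0.246 for its own). Deviations of arrays of the same number also correlated between the stages (0.18 to 0.485 in controls, 0.292 to 0.463 in morphants). The main fit had no block for the numbers, in Pbx effects or in stage changes, and fits with the block were run as alternatives. No 2 arrays were identical (r within groups 0.995 to 0.998).

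The members and lists were chosen with earlier results of these data known. Every member is named. Of the other lists, genes called in either Pbx effect are named, up to 8 a list by adjusted p, with the 2 most alike genes for each called member. The number of arrays limits the precision. Alternatives were other scalings, the replicate block, array weights, a variance trend, a filter on dim probe sets, a fit of each stage alone, and leaving out each array or all those numbered 1.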

Additional observations from a re-analysis of the deposited data

Results flagged for a closer look

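Among the named genes, the myosin light chain gene cmlc1 had Pbx effects that differed between the stages by the limma test of the difference itself. Its mean signal was 5.15 in controls and 4.94 in morphants at 10 somites, and 7.14 and 5.28 at 18 somites. All but the controls at 18 somites lay within the tag range, so the sizes below are limited by background. That is an effect of -0.21 ± 0.12 at the earlier stage (adjusted p = 0.313) and of -1.85 ± 0.12 at the later one (adjusted p = 5.32e-07). The 2 effects differed by -1.64 ± 0.16 (adjusted p = 0.00136). Of the 9 contractile genes measured, 1 had such a difference as reported, where 5 of all 15502 probe sets did. With the replicate block 3 had it, where the block within each stage called 52 of all probe sets. Over the alternatives the number of contractile genes ran from 0 to 4.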

How the results depend on the processing

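The rises of hand2 and gata5 at 18 somites kept their direction and call in all 21 alternatives run (hand2 0.71 to 0.81, gata5 0.29 to 0.415). The number of members called for the Pbx effect at 10 somites, 2 as reported, was 1 after quantile normalization, 0 without the 4 arrays numbered 1 and 1 to 2 with 1 array left out. The count over all probe sets at 10 somites, 1267, was 2040 with the replicate block within each stage, 2155 with the replicate block shared by both stages, 2447 with array weights, 333 without the 4 arrays numbered 1 and 643 to 1447 with 1 array left out. At 18 somites the count, 1935, was 677 without the 4 arrays numbered 1 and 1213 to 1987 with 1 array left out. Besides tbx5a at 18 somites, the second tbx5a probe set between stages in controls and the counts given with the block above, the block changed no call of a member. For the difference between the stages' effects, 5 probe sets as reported, the count was 14 after median centring, 11 after quantile normalization, 52 and 55 with the replicate block within stages and shared, 32 with array weights, 33 with a variance trend, 3 in the brightest 60% of probe sets, 0 without the 4 arrays numbered 1 and 1 to 20 with 1 array left out. No member was called for it in any of these. For the stage change without centring 14805 probe sets were called in controls and 14773 in morphants (1.72% and 1.94% of them higher). Among the 60% with the highest mean, which leaves out nkx2.5, both tbx5a probe sets and tbx20, it was 4707 and 5112, with 5 members called in morphants and 31.1% and 31.0% of the calls higher, against 48.0% and 46.5% as reported. After centring on the 75th percentile 63.9% and 65.9% of the calls were higher.

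Directions turned only for members that were not called or lay in the tag range. Without centring nkx2.5 was at -0.71 in controls and -0.44 in morphants between stages, tbx5a at -0.52 and -0.68 and its second probe set at -0.60 and -0.47, and after quantile normalization nkx2.5 was at -0.18 in controls. For gata6 at 10 somites the effect was -0.001 with array weights, and for gata4 it was 0.042 without the 4 arrays numbered 1. With 1 array left out, the Pbx effect at 10 somites ran from -0.135 to 0.047 for gata4, from -0.063 to 0.184 for gata6 and from -0.043 to 0.053 for tbx20. At 18 somites it ran from -0.027 to 0.11 for tbx20 and from -0.004 to 0.11 for the second tbx5a probe set. The difference between the stages' effects ran from -0.035 to 0.102 for tbx20, and the stage change of tbx5a in morphants from -0.016 to 0.122. The cause was not tested.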

Other observations

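Genes of other tissues that use these factors are given beside the calls over all probe sets, 8.17% at 10 somites and 12.5% at 18 somites (7.11% for a rise). Of 10 measured pectoral fin field genes, which include hand2 and tbx5a, 1 rose and 1 fell at 10 somites and 2 rose at 18 somites. Besides hand2 these were meis3 at -0.64 at 10 somites (adjusted p = 0.00264) and meis1b, a Pbx partner gene, at 0.28 at 18 somites (adjusted p = 0.00934). With the replicate block 2 genes of this list fell at 18 somites. Over all 15502 probe sets the block within each stage called 1214 falls there in place of 833. Of 9 measured genes of the pharyngeal arches and branchiomotor neurons, which include hand2 and tbx20, 1 rose at 10 somites and 3 rose at 18 somites. Besides hand2 these were dlx3b at 0.29 (adjusted p = 0.0482, and 0.148 without the control array numbered 2) and dlx5a at 0.33 (0.0217, and 0.0756 without the morphant array numbered 3). With the replicate block 1 fell at 10 somites, where the block within each stage called 961 falls over all probe sets in place of 597.

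Of 8 measured blood and vessel regulators of the lateral plate, 1 rose and 1 fell at 10 somites, gata2a and gata1a, and 2 rose at 18 somites, gata2a and spi1b. The myeloid factor gene spi1b was at 0.49 (adjusted p = 0.00358), and its second probe set gave 0.76 (adjusted p = 0.00358). Of 5 measured dorsal eye genes, which include tbx5a, aldh1a2 fell at both stages, and the Bmp inhibitor gene bambia rose by 0.43 at 18 somites (adjusted p = 0.00545). With the replicate block 2 fell at 18 somites, where the block within each stage called 1214 falls over all probe sets in place of 833.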
